A study of Mus musculus with 4 samples.

Results

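The miR-221 and miR-222 cluster was described in mouse liver through its 4 mature miRNAs, mmu-miR-221-3p, mmu-miR-221-5p, mmu-miR-222-3p and mmu-miR-222-5p, which are the 5p and 3p arms of both hairpins. They were selected by name from the 1907 mature miRNAs counted. Small RNA was sequenced from livers of C57BL/6 mice aged 15 weeks. The series held 2 control libraries and 2 libraries from mice given thioacetamide (TAA), a hepatotoxin that causes liver fibrosis in rodents. TAA was given intraperitoneally at 200 mg/kg per injection, 3 injections weekly over 10 weeks. The sources used here do not give what the controls received or the sex of the mice. The series' design text calls the libraries biological replicates without naming animals, so the tests below measure the spread between these libraries, which may be partly technical.

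A microRNA hairpin is cut into a duplex whose strands are the 5p and 3p arms, and the arm loaded into Argonaute represses mRNAs that pair with its seed, bases 2 to 8. miR-221 and miR-222 are transcribed together from the X chromosome. They are known for repressing Cdkn1b, the cell cycle inhibitor p27, and Kit, a receptor tyrosine kinase. They are abundant in vascular endothelium, and they have been reported to rise when hepatic stellate cells, the main source of scar matrix in liver, are activated. The question put to these data was whether that rise is seen in whole liver after TAA.

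The 3p arms carry the family's targeting sequence and are shown first, with the seed in capitals. Beside them are the 5p arm of miR-221 and miR-1928, the only other miRNA found to share a member's seed. Names without a listed mature sequence could not be searched. Sequences are from RefSeq on GRCm38.p6, 5′ to 3′, where 1623 of the 1907 names and 3 of the 4 members had a mature entry.
mmu-miR-221-3p: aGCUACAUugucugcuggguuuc
mmu-miR-222-3p: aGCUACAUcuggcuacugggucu
mmu-miR-1928: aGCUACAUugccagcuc
mmu-miR-221-5p: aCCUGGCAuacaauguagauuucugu

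miR-221-3p and miR-222-3p began with the same 8 bases, including the whole seed. Compared base by base, without gaps or shifts, miR-221-3p and miR-222-3p were equal at 11 of their 23 positions. They diverge past base 8, so full-length reads of these arms differ. miR-1928, encoded on chromosome 1, shared its first 10 bases with miR-221-3p. It had 0 counts in all 4 libraries, which allows at most 0.0614 to 0.0704 CPM (counts scaled to library size) by counting error alone, which is 3 counts per library. Among names with a listed mature sequence, the seed family was therefore measured here as miR-221-3p plus miR-222-3p.

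The hairpins are shown with the listed mature arms in capitals, because their order gives the arm called 5p and the arm called 3p.
Mir221, chrX:19146294-19146388, minus strand: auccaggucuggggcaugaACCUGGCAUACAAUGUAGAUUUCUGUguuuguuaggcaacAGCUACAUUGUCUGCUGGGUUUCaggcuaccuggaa
Mir222, chrX:19146893-19146971, minus strand: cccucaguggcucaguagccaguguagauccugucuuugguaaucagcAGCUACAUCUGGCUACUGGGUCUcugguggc

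The hairpins lie 504 bases apart on the same strand of GRCm38, which is mm10, the build named in the submitters' processing notes. No other GENCODE gene overlaps the cluster, so both hairpins are intergenic in that annotation. The nearest annotated gene is Gm14636, a processed transcript on the same strand, 10009 bases away at higher coordinates. As an example of the site that the 3p seed pairs with, the 3′ UTR of Cdkn1b (transcript ENSMUST00000003115.8) holds 1 match to ATGTAGC. These letters are the reverse complement of the seed. The match is exonic on the plus strand of GRCm38, shown in capitals within chr6:134924416-134924445: ctctaaaagcattggATGTAGCattgcgca. The search covered the transcript strand only. The same 7 letters occur in the longest 3′ UTR of 9.45% of 21007 protein-coding genes, whose lengths differ, and no mRNA was measured in this series.

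The libraries held 42609845 to 48878003 miRNA counts, so 1 CPM stood for 42.3 to 51.3 counts after TMM scaling. miR-122-5p, the miRNA that defines hepatocytes, was present at 17376 to 21607 CPM in the labelled liver libraries. In bulk liver, a change in the number of cells that make a miRNA and a change in the amount per cell cannot be told apart.

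miR-221-3p was the most abundant member, and its level did not separate the groups. It measured 573 and 500 CPM in control 1 and control 2, from 24268 and 21368 counts, and 537 and 516 CPM in TAA 1 and TAA 2, from 24414 and 26470 counts. Both TAA libraries lay between the controls. The group means were 537 ± 51.9 CPM for control and 527 ± 15.0 CPM for TAA (SD, n = 2 each). In order of counts it ranked 68th in both controls and 70th in both TAA libraries.

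miR-222-3p, which has the same seed, was the second member by level. It measured 164 and 170 CPM in the controls and 159 and 183 CPM in TAA 1 and TAA 2, with means of 167 ± 3.93 and 171 ± 16.6 CPM (SD, n = 2 each). The TAA libraries lay on either side of both controls. Its 6960 to 9386 counts placed it between ranks 101 and 112. The separation of this miRNA depended on scaling. As a plain share of miRNA counts, without TMM, both TAA libraries (0.0165% and 0.0192%) lay above both controls (0.0163% and 0.0157%). The 95% Wilson intervals of TAA 1 (0.0162% to 0.0169%) and control 1 (0.01596% to 0.0167%) overlapped. These intervals cover counting error only.

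The 5p arms, usually the less stable strands of these duplexes, were lower. miR-221-5p measured 91.2 and 82.9 CPM in the controls and 75.2 and 92.3 CPM in TAA 1 and TAA 2. The lowest and the highest library were thus both TAA libraries. miR-222-5p was the rarest member, at 4.56 and 5.40 CPM in the controls and 4.44 and 5.20 CPM after TAA, from 193 to 267 counts per library. The order of the members, miR-221-3p, miR-222-3p, miR-221-5p and miR-222-5p, was the same in every library, and no neighbouring members overlapped. Each read stands for a whole miRNA, so these levels need no length scaling, but ligation efficiency differs between sequences and was not measured.

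**Figure D1:**
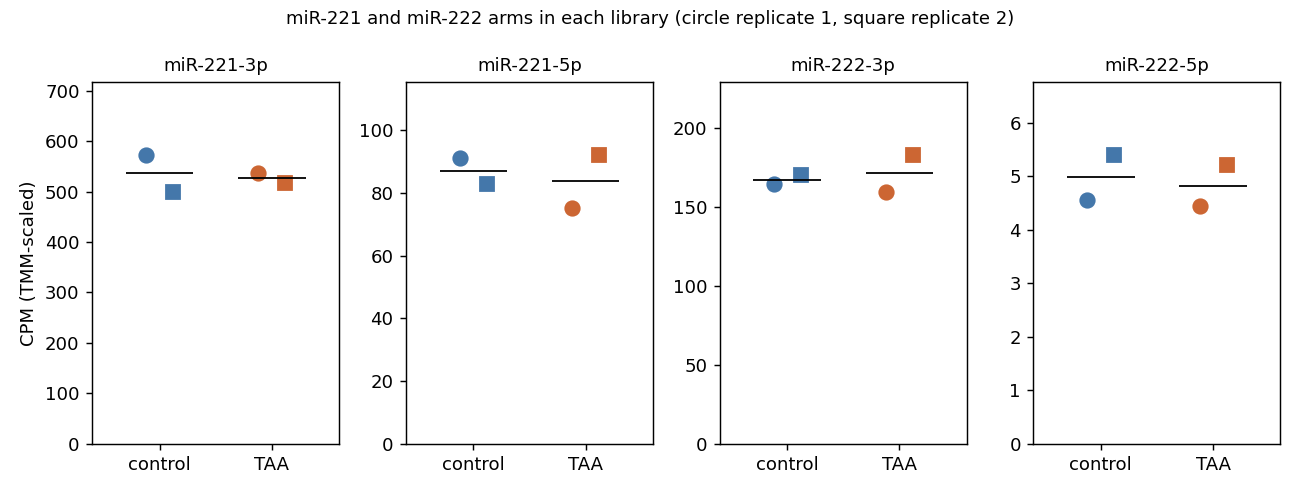
Level of each arm in CPM scaled with TMM factors (vertical axes start at 0) in the 2 control (blue) and 2 TAA (orange) libraries, with lines at group means. In all 4 panels the groups overlap, such as 500 to 573 CPM in control against 516 to 537 CPM in TAA for miR-221-3p.

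None of the 4 members passed the test of TAA against control, and the fold changes lay between 0.962 and 1.02. With edgeR's quasi-likelihood F test, Benjamini-Hochberg adjusted over all 644 miRNAs tested, 0 of 4 members passed at 0.05, against 16.6% of all tested miRNAs (107) and 14% that passed as higher (90). At an unadjusted p under 0.05 the count was also 0 of 4 members, against 165 of all 644. DESeq2 and limma-voom called 0 members as well. In CPM, the groups did not overlap for 55.3% of tested miRNAs, and they overlapped for all 4 members.

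For miR-221-3p the log2 fold change was -0.027 (SE 0.13, edgeR adjusted p = 0.923), and its 95% interval ran from 0.803-fold to 1.20-fold. For miR-222-3p the log2 value was 0.034 (SE 0.14, edgeR adjusted p = 0.92), with an interval from 0.82-fold to 1.28-fold. The fold change of miR-221-5p was 0.962 with an interval of 0.744 to 1.24, and that of miR-222-5p was 0.969 with an interval of 0.693 to 1.36. Rises above 1.36-fold and falls below 0.693-fold lay outside the interval of every member. The intervals rest on 2 libraries per group and on a spread shared across miRNAs.

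The spread between replicates was larger than the difference between groups for each member. The higher control exceeded the lower by 1.15-fold for miR-221-3p, 1.10-fold for miR-221-5p, 1.03-fold for miR-222-3p and 1.19-fold for miR-222-5p. The same ratio between the TAA libraries was 1.04, 1.23, 1.15 and 1.17 in that order. The ratio of group means, TAA to control, was 0.981, 0.962, 1.02 and 0.969. For scale, the smallest absolute log2 fold change that passed the test was 0.41, both over all miRNAs and among the 137 of at least 100 CPM, where 18 passed. Of the 644 miRNAs tested, 5.75% changed less than miR-221-3p in absolute log2 terms, and 7.14% less than miR-222-3p.

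**Figure D2:**
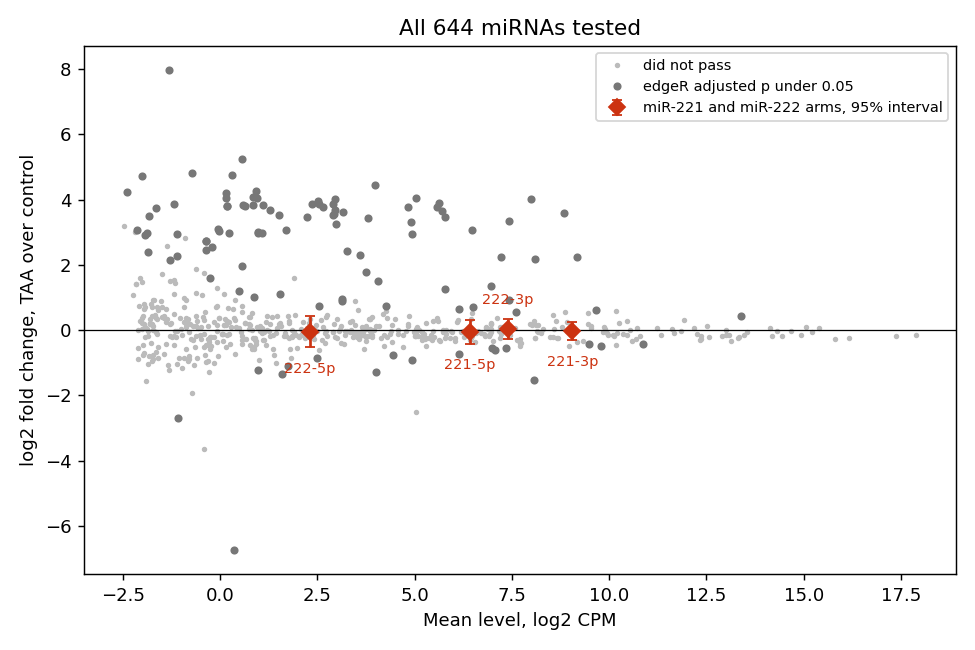
Log2 fold change (TAA over control) against mean level in log2 CPM for the 644 miRNAs tested, with the 107 that passed edgeR's test in dark grey and the 4 arms of miR-221 and miR-222 in red with 95% intervals. The 4 arms lie near 0, between -0.056 and 0.034, at mean levels from 2.3 (miR-222-5p) to 9.1 log2 CPM (miR-221-3p).

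No member passed under another scaling. No sign turned with RLE factors, that of miR-222-3p turned with upper-quartile factors, and those of the other 3 members turned with library size alone. Over all tested miRNAs the median log2 fold change was -0.0042 with TMM factors, -0.17 with upper-quartile factors and 0.12 with library size alone. miR-221-3p had -0.19 and 0.090 under those scalings, which is -0.022 and -0.027 relative to the median of all miRNAs. miR-222-3p had -0.14 and 0.16, or 0.034 and 0.039 relative to that median. Measured against the other miRNAs, both 3p arms lay within 0.039 of the median under these scalings. Other factors shift all miRNAs by nearly the same amount, so these relative values could hardly move and do not test the scaling.

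**Figure D3:**
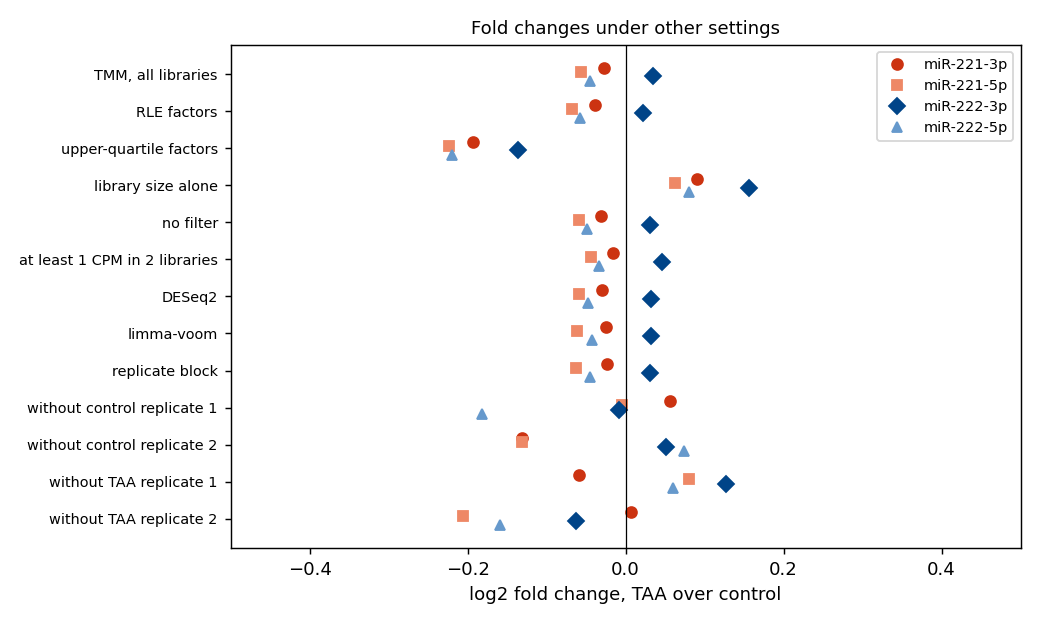
Log2 fold change of each arm (TAA over control) with TMM factors and all libraries, then with other scaling factors, filters, tests, a replicate block and each library left out. All points lie between -0.22 and 0.16, and none of the arms passed the test in any of these fits.

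The balance of the arms within each hairpin was examined because it needs no scaling between libraries. In miR-221, the 5p arm took 13.7% and 14.2% of the hairpin's reads in control 1 and control 2, and 12.3% and 15.2% in TAA 1 and TAA 2. The TAA libraries lay on either side of the controls. Their 95% Wilson intervals, 11.9% to 12.7% and 14.8% to 15.6%, did not meet, so they differed by more than counting error. In miR-222, the 5p arm took 2.70% and 3.08% of reads in the controls against 2.71% and 2.77% after TAA, with intervals that all overlapped.

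The 3p arm was therefore 5.59 to 7.14 times as frequent as the 5p arm in miR-221 and 31.5 to 36.1 times in miR-222. Of 150 hairpins with enough reads in both arms, 40 leaned further to 3p than miR-221 and 23 further than miR-222. The log2 ratio of 5p to 3p changed by -0.038 in miR-221 (SE 0.20, 95% interval -0.55 to 0.47, limma adjusted p = 0.985) and by -0.077 in miR-222 (SE 0.18, 95% interval -0.54 to 0.38, limma adjusted p = 0.985). Of all 150 hairpins tested with limma, 0% passed, and 5 had an unadjusted p under 0.05. miR-221 and miR-222 were not among those 5, with unadjusted p-values of 0.858 and 0.692 in limma.

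The hairpins' shares of the seed family varied more between replicates than between groups. miR-222-3p made up 22.3% of the reads of both 3p arms in control 1 and 25.4% in control 2. It made up 22.9% in TAA 1 and 26.2% in TAA 2. The libraries numbered 2 were thus higher than those numbered 1 in both groups. Their 95% Wilson intervals were 24.9% to 25.9% in control 2 and 25.7% to 26.6% in TAA 2. Those of control 1 and TAA 1 were 21.8% to 22.8% and 22.4% to 23.4%. The labels do not say that a number marks a shared batch or day. The log2 ratio of miR-222-3p to miR-221-3p was -1.68 ± 0.17 for control and -1.62 ± 0.18 for TAA (SD, n = 2 each). The difference of 0.055 gave p = 0.667 in a two-sided exact permutation test, which cannot go below 0.33 in this design.

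Summed over both 3p arms, the seed family measured 738 and 670 CPM in the controls and 697 and 699 CPM in TAA 1 and TAA 2. Both TAA libraries lay between the controls. The means were 704 ± 48.0 and 698 ± 1.66 CPM (SD, n = 2 each; two-sided exact permutation p = 1, where 0.33 is the smallest possible). All 4 arms together took 0.0828% and 0.0701% of miRNA counts in the controls against 0.0805% and 0.0836% after TAA. Within that total miR-221-3p held 64.8% to 69.2%, miR-222-3p 19.7% to 23.0%, miR-221-5p 9.69% to 11.6% and miR-222-5p 0.547% to 0.713%.

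**Figure D4:**
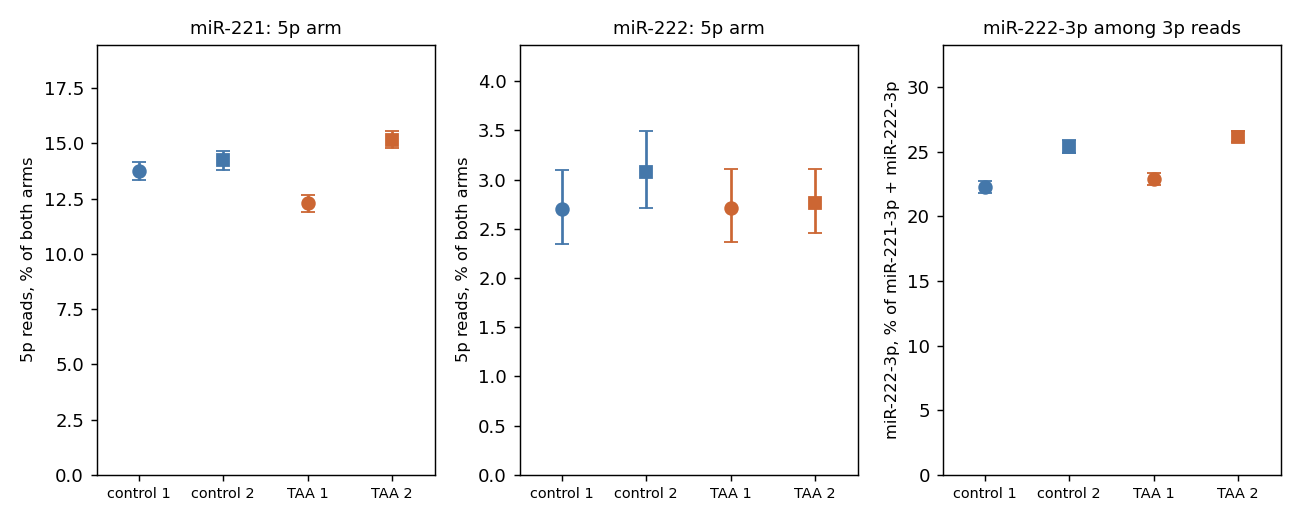
Share of 5p reads in the miR-221 and miR-222 hairpins, and share of miR-222-3p among the reads of both 3p arms, in percent for each library with 95% Wilson intervals. In each panel the control or the TAA replicates differ by more than the group means do, such as 12.3% and 15.2% for the 5p share of miR-221 in the TAA libraries. For the 5p share of miR-222 the TAA replicates lie close, at 2.71% and 2.77%.

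miRNAs linked to the cells that could supply miR-221 and miR-222 were measured in the same libraries. Of 12 stellate cell and mesenchymal miRNAs, 1 passed as higher and 0 as lower, a share no greater than the 14% of all tested miRNAs that passed as higher, and their log2 fold changes ran from -0.41 to 0.90 around a median of 0.17, beside -0.0042 over all 644. The member that rose was miR-214-3p, transcribed with miR-199a and enriched in fibroblasts and stellate cells. It measured 59.3 and 50.9 CPM in the controls and 96.0 and 77.1 CPM after TAA (edgeR adjusted p = 0.0354 at a log2 difference of 0.65, SE 0.17), so the groups did not overlap. It did not pass without control 2 (adjusted p = 0.085), without TAA 1 (0.326) or without TAA 2 (0.0908), where its log2 fold changes were 0.54, 0.48 and 0.80. How many of the list passed varied in both directions with the library left out, and such fits leave 1 library in a group. Over all miRNAs fewer passed without either TAA library than the 107 with all libraries, and more passed without either control.

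Families of that list lay on different sides of the controls. The groups did not overlap in 6 of its 12 members, a share no greater than the 55.3% of all tested miRNAs. Of these, miR-199a-3p, miR-199b-3p, miR-199b-5p, miR-214-3p and miR-214-5p were higher in TAA and miR-145a-3p was lower. miR-199a-3p measured 641 and 523 CPM in control and 946 and 714 CPM in TAA (adjusted p = 0.0842). The most abundant, miR-21a-5p, measured 27861 and 37690 CPM in control and 35611 and 34082 CPM in TAA, which overlapped. In control, miR-221-3p measured 537 CPM, beside 582 CPM counted as miR-199a-3p and 378 CPM counted as miR-199b-3p. Their log2 fold changes were -0.027, 0.51 and 0.55. The differences between those changes were not tested, nor was whether both miR-199 names count the same molecule.

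Neither endothelial miRNA passed. miR-126a-5p and miR-126a-3p, both from an intron of Egfl7, had log2 fold changes of -0.17 and -0.042. The summed level of this list was 25346 and 29184 CPM in control and 26408 and 22654 CPM in TAA. Both hepatocyte miRNAs were lower in each TAA library than in each control, at 19895 and 23426 CPM summed against 18756 and 18863 CPM, a separation seen in 55.3% of all tested miRNAs, and 0 of 2 passed.

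Among 6 leukocyte miRNAs, whose median log2 fold change was 0.55, 2 rose and 0 fell, beside 14% of all tested miRNAs that rose. They were miR-150-5p of mature lymphocytes, at 67.4 and 74.6 CPM in control and 188 and 172 CPM in TAA (edgeR adjusted p = 0.000241), and miR-155-5p, induced in activated immune cells, at 6.24 and 5.71 against 11.0 and 12.0 CPM (adjusted p = 0.0102). miR-155-5p did not pass without TAA 1 (0.0526) or TAA 2 (0.0754), where its log2 fold changes were 1.0 and 0.89 against 0.95 with all libraries. How many of the list passed varied in both directions with the library left out, as did the number over all miRNAs. miR-142a-5p, the most abundant of the list, measured 706 and 1164 CPM in control and 1488 and 1290 CPM in TAA (adjusted p = 0.138).

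Each of the 4 erythroid miRNAs rose (median log2 fold change 2.27), beside 14% of all tested miRNAs that passed as higher. Without TAA 2 their log2 fold changes were smaller, from 0.88 for miR-144-3p to 1.06 for miR-144-5p, so the size of the rise rested largely on that library. The calls given here are those with all libraries, and they are not shown to hold without TAA 2. miR-486a-5p, the most abundant, measured 245 and 158 CPM in control, 418 CPM in TAA 1 and 1478 CPM in TAA 2 (adjusted p = 0.0199). miR-451a measured 72.2 and 31.8 CPM in control, 98.4 CPM in TAA 1 and 390 CPM in TAA 2 (adjusted p = 0.0394). miR-144-3p and miR-144-5p also passed, with log2 fold changes of 2.30 and 2.43. TAA 2 was also the library with the most miR-222-3p and, narrowly, miR-221-5p (92.3 CPM against 91.2 CPM in control 1). In contrast, miR-221-3p was highest in control 1 and miR-222-5p in control 2. The part of erythroid RNA in the levels of the members was not tested.

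**Figure D5:**
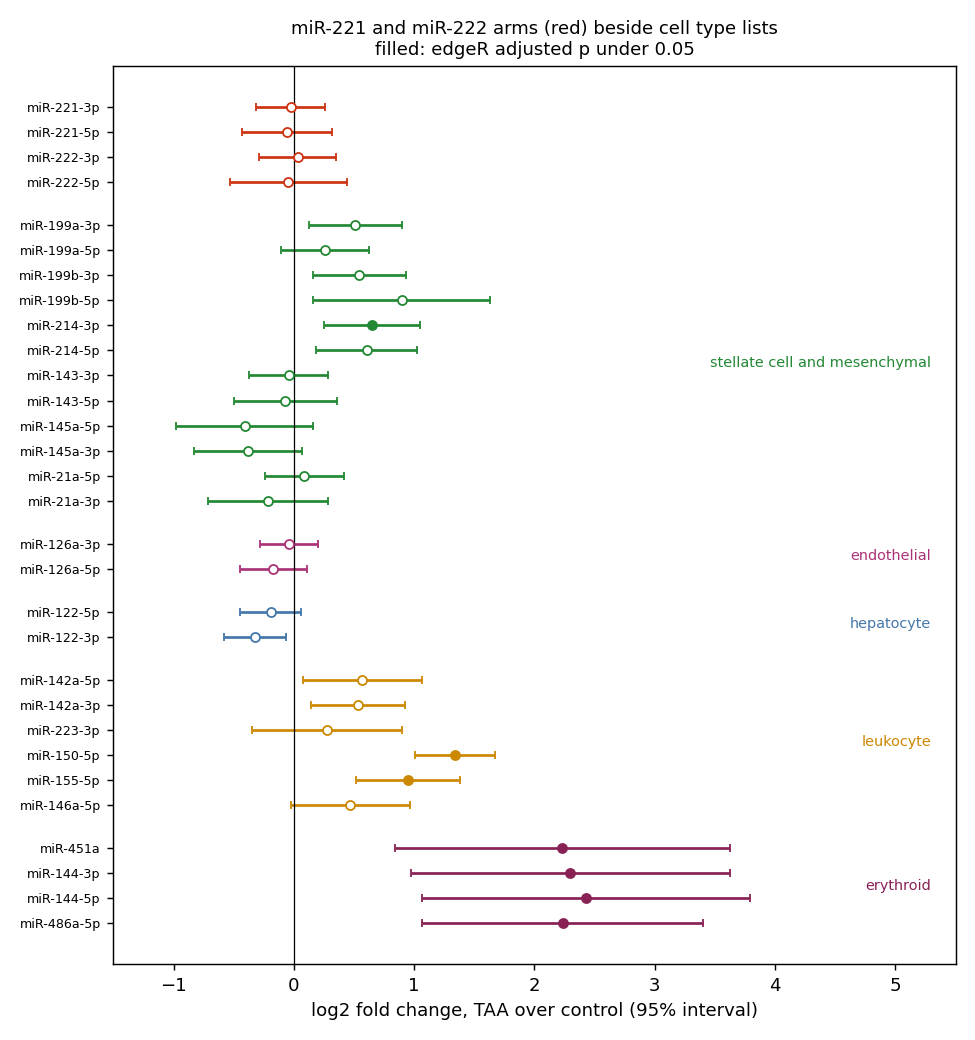
Log2 fold change (TAA over control) with 95% intervals for the 4 arms of miR-221 and miR-222 in red and for the miRNAs of 5 cell type lists, with filled points for those that passed edgeR's test. The red intervals all span 0, as do both endothelial ones, while miR-214-3p, 2 leukocyte and 4 erythroid miRNAs are filled.

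The miRNAs most like each 3p arm across the 4 libraries were listed among 272 others with a mean of at least 10 CPM. Likeness was the Euclidean distance between profiles of log2 CPM centred on their mean. For miR-221-3p the nearest were miR-23b-3p (distance 0.0412), miR-425-3p (0.0681), miR-874-3p (0.0757), let-7a-5p (0.0764) and miR-191-5p (0.106). miR-23b-3p measured 1017 and 859 CPM in control and 934 and 883 CPM in TAA, with control 1 highest and control 2 lowest, the same order as in miR-221-3p.

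For miR-222-3p the nearest were miR-330-5p (0.0416), miR-28a-5p (0.0496), miR-5099 (0.0923), miR-335-3p (0.0968) and miR-92a-3p (0.0984). miR-28a-5p measured 277 and 290 CPM in control and 261 and 302 CPM in TAA, lowest in TAA 1 and highest in TAA 2, as in miR-222-3p. Although they come from neighbouring hairpins, miR-222-3p stood 88th among the miRNAs nearest to miR-221-3p, and miR-221-3p 73rd among those nearest to miR-222-3p, at a distance of 0.257. Flat profiles give small distances, and 4 libraries that share their depth and scaling give these orders no test.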

How the data were processed

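Small RNA libraries were made with the TruSeq small RNA kit from total RNA of liver tissue, with 2 control and 2 TAA libraries, per the labels' protocols. Each of the authors' deposited files holds the unnormalized counts of mature miRNAs in 1 library. Alignment with Bowtie to mm10 and counting with HTSeq are named in the submitters' processing notes, and the sources used here give no versions, settings or miRNA annotation release. Summary rows that name no miRNA were left out of library sizes and tests. They held 22.8% to 26.4% of reads outside annotated miRNAs, 7.11% to 8.49% not aligned, and 0 counted as not uniquely aligned. Replicates differed by more than counting noise (chi-square per degree of freedom 237 and 324), so none was counted as a deposited copy of another. That does not show that they came from separate animals.

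Tests of counts used the quasi-likelihood F test of edgeR 4.0.16 in R 4.3.3, after filterByExpr and TMM scaling, Benjamini-Hochberg adjusted over 644 miRNAs, at 0.05. All 4 members passed the filter. Intervals of fold changes are the estimate plus or minus the t quantile times the SE, which is the log2 fold change over the square root of F. Arm ratios, log2 of 5p over 3p counts each plus 0.5, went into limma 3.58.1 for the 150 hairpins whose arms both averaged 20 counts or more. Single values were tested with exact permutation tests. The procedures were tested on simulated data. Alternatives were other scalings, filters, DESeq2 1.42.0, limma-voom, a replicate block and leaving out each library. miRNAs were named by rule: the members, miRNAs with a member's seed, the 5 nearest profiles of each 3p arm (prior count 2), and in each list those that passed and the most abundant. Others were chosen after their values were seen. The members and lists were chosen with earlier results of these data known.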

Additional observations from a re-analysis of the deposited data

How the results depend on the processing

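None of the 4 members passed the test in any of the 12 alternatives, so their count stayed at 0, and no arm ratio passed. Signs turned for values this close to 0. With upper-quartile factors the log2 fold change of miR-222-3p was -0.14. With library size alone it was 0.090 for miR-221-3p, 0.063 for miR-221-5p and 0.080 for miR-222-5p, and the seed family's summed change was 0.11, against -0.011 with TMM. Leaving out each library gave -0.13 to 0.056 for miR-221-3p, -0.21 to 0.081 for miR-221-5p, -0.063 to 0.13 for miR-222-3p and -0.18 to 0.075 for miR-222-5p. The 5p to 3p log2 ratio then changed by -0.22 to 0.14 in miR-221 and by -0.18 to 0.022 in miR-222, the summed 3p level by -0.080 to 0.059, and the log2 ratio of miR-222-3p to miR-221-3p by -0.073 to 0.18. The cause of these turns was not tested. With the replicate block miR-221-3p had -0.024 and miR-222-3p 0.031, and no member's call changed. Deviations of libraries with the same number correlated at -0.053 across miRNAs, so the numbers were not taken to pair the libraries. With 2 libraries per group, the data are compatible with any change inside the intervals given in the report. Those intervals are not limits of detection. The widest was that of miR-222-5p, with 193 to 267 counts.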
